A study of Mus musculus with 4 samples.

Results

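The cells described here are Osr1-negative mesothelial cells of the mouse liver in recovery. They are 985 of the 2126 kept cells of the positive recovery library, or 46.3% (95% exact binomial interval 44.2 to 48.5). Cells needed 1000 or more UMIs (unique molecular identifiers, which count captured RNA molecules), 300 or more genes and no more than 20% of UMIs from mitochondrial genes. A kept cell entered the mesothelial gate when Msln, Upk3b, Nkain4 and Lrrn4 together reached 10 of every 10000 UMIs and the endothelial genes Clec4g, Stab2 and Ptprb stayed under 20. The gate took 1389 cells. Of these, the 985 with 0 UMIs of Osr1, a zinc finger transcription factor, are the members, and 404 had at least 1 Osr1 UMI. Members were thus selected on the measured UMIs of these 8 genes, whose values are description only.

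All mice carried a Col1a2-CreERT2 driver, whose tamoxifen-inducible recombinase follows a collagen promoter, with a tdTomato reporter. The genotype field spells the reporter allele R27RtdTomato for positive recovery, R29RtdTomato for negative recovery, R28RtdTomato for negative injury and R26RtdTomato for positive injury, and the design text gives the last spelling alone. Steatohepatitis was induced over 8 weeks with the MCDHF regimen, a 45% fat diet without methionine and choline plus 0.1% L-methionine in the water. Non-parenchymal cells, marked positive or negative and taken at injury or in recovery, gave 4 libraries, 1 per combination. Of the number and age of the mice, how long recovery lasted and how cells were sorted, nothing is stated in the sources used here. In such mice recombination switches the reporter on. The sample titles say positive without naming the reporter. If they mean the reporter, a positive cell is one in which, or in an ancestor of which, the recombinase acted. In either case these cells come from the positive fraction and are not a census of the liver surface.

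Mesothelium is the single sheet of flattened cells that covers the liver capsule and other serosal surfaces. It shares features of epithelium, such as keratins and apical microvilli, with features of mesenchyme, such as vimentin and matrix genes. It secretes a lubricating glycocalyx, and in mouse development it can give rise to stellate cells and fibroblasts of the liver.

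Members held 15724142 UMIs, with a median of 13920 per cell (1005 to 113004), a median of 3964 genes and 4.03% mitochondrial UMIs. All other kept cells of the library had a median of 12137 UMIs, and the gated Osr1-positive cells 16928. The 3 libraries with counts held 10215 kept cells, and the gate with 0 Osr1 UMIs found 82 cells in negative recovery and 258 in negative injury. Counts of the positive injury library were not analysed here. Members shared 0, 2 and 3 cell barcodes with the negative recovery, negative injury and positive injury libraries. The doublet caller Scrublet marked 36 members (3.65%) among 96 of the 2126 kept cells. It marked a larger share of the gated Osr1-positive cells, 32 of 404 (7.92%), and these stayed in the comparisons. Each group is 1 library, so differences lack a replicate check and no test was run. Intervals, exact Poisson for levels and exact binomial for shares, cover counting error only.

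The mesothelial sum of members ran from 10.2 to 133 per 10000 UMIs with a median of 39.4, and few cells lay at the edge. Just inside, 9 members had 10 to under 12, and just outside 19 cells had 8 to under 10. No UMI of the endothelial gate genes was found in 849 members, and 8 members had 10 or more per 10000. A count of 0 for Osr1 depends on depth. The Osr1-positive share of gated cells was 6.25% (3.16 to 10.9) at 1000 to under 3000 UMIs and 18.0% (12.9 to 24.0) up to 10000. It was 33.9% (30.1 to 37.9) up to 20000 and 37.1% (32.4 to 41.9) above. A shallow member is thus counted as negative on fewer captured molecules.

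**Figure D1:**
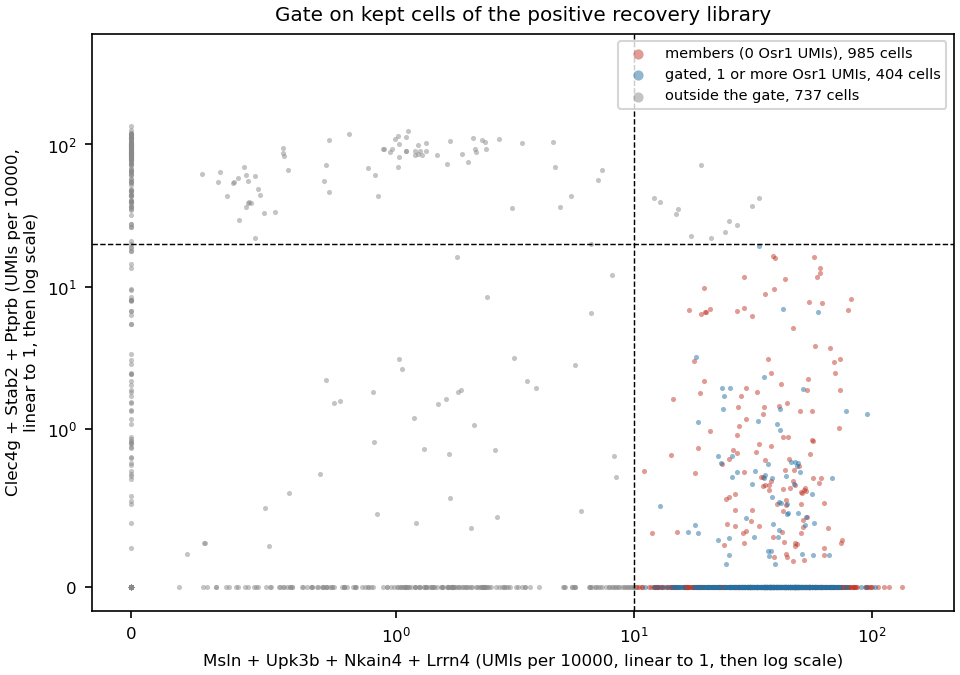
Each point is 1 kept cell of the positive recovery library, with the summed mesothelial gate genes on the horizontal and the summed endothelial gate genes on the vertical axis, both in UMIs per 10000 (linear to 1, then log). Dashed lines mark the limits of 10 and 20; members and gated Osr1-positive cells overlap on both axes, and 12 cells passed both limits and were left outside.

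The label is mesothelial, and marker genes that the gate did not use lay on the same side as those it did. Levels are CPM, UMIs of a gene per 1000000 UMIs of its class of cells, and log2 ratios have 10 CPM added on either side. Krt7 and Krt19, keratins of simple epithelia, were at 606 CPM (594 to 619) and 1421 CPM (1402 to 1439) in members, against 116 CPM (111 to 121) and 567 CPM (556 to 578) in all other kept cells, with log2 ratios of 2.29 and 1.31. Gpm6a, a membrane glycoprotein of developing mesothelium and neurons, was at 1182 CPM (1165 to 1200) in members and 404 CPM (395 to 414) in the other cells, a log2 ratio of 1.53. Igfbp5, which binds insulin-like growth factors, was at 9150.1 CPM (9103 to 9197) in members and 4069 CPM (4038 to 4099) in the others (1.17). Msln (mesothelin, chromosome 17, 25748613 to 25754378, mm10) and Upk3b (uroplakin 3B, chromosome 5, 136038496 to 136046487), both of the gate, were at 1567 and 1287 CPM in members and at 348 and 697 CPM in the others.

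Within the other cells of the library these markers were unevenly spread. The gated Osr1-positive cells had Krt19 at 1065 CPM and Gpm6a at 752 CPM. Outside the gate, Krt19 was at 19.0 CPM in the 197 cells of the endothelial gate, 25.9 CPM in the 64 of the lymphocyte gate and 81.0 CPM in the remaining ungated cells. Gpm6a was at 17.0, 20.7 and 69.1 CPM in these 3 classes, in the same order. With every cell thinned to 1000 UMIs, Gpm6a had a UMI in 65.5% of members, against 48.5% of gated Osr1-positive, 2.54% of endothelial and 6.25% of lymphocyte cells, whose medians before thinning were 16928, 10039 and 5166 UMIs. All members carried at least 1 UMI of C3, and 99.6% of Igfbp5.

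Of 9618 genes at 10 CPM or more in either group, 270 (2.81%) were at least 2-fold higher in members than in all other kept cells and 851 (8.85%) at least 2-fold lower, and the median log2 ratio was -0.09. TMM and DESeq2 scaling raised log2 ratios by up to 0.15, and by less for genes near the 10 CPM added. The other cells are a mixture of the 404 gated Osr1-positive cells, 197 endothelial, 64 lymphocyte, 46 myeloid and 430 remaining cells. The gated Osr1-positive cells, which pass the same mesothelial gate, gave 8686244 of the 17158689 UMIs of this mixture.

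The highest ratio was that of Prph, peripherin, an intermediate filament known from peripheral neurons, at 584 CPM (572 to 596) in members and 72.2 CPM (68.2 to 76.3) in the other kept cells (2.85). Myl7, the atrial regulatory myosin light chain, was at 604 CPM against 87.2 CPM (2.66). Bst1, an ectoenzyme of nucleotide metabolism also called CD157, was at 347 CPM against 50.1 CPM (2.57), and Slpi, a secreted inhibitor of leukocyte proteases, at 4280.4 CPM against 743 CPM (2.51). The predicted gene AU021092 (2.48), the chloride channel protein Clic3 (2.39), the proton pump subunit Atp6v0a4 (2.39), the interleukin receptor Il18r1 (2.35), the surface protein Plet1 (2.34) and the laminin-binding adhesion molecule Bcam (2.33) completed the top 10. None of these 10 belonged to the gate. In the remaining ungated cells Prph, Bst1 and Slpi were at 18.6, 13.6 and 152 CPM.

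**Figure D2:**
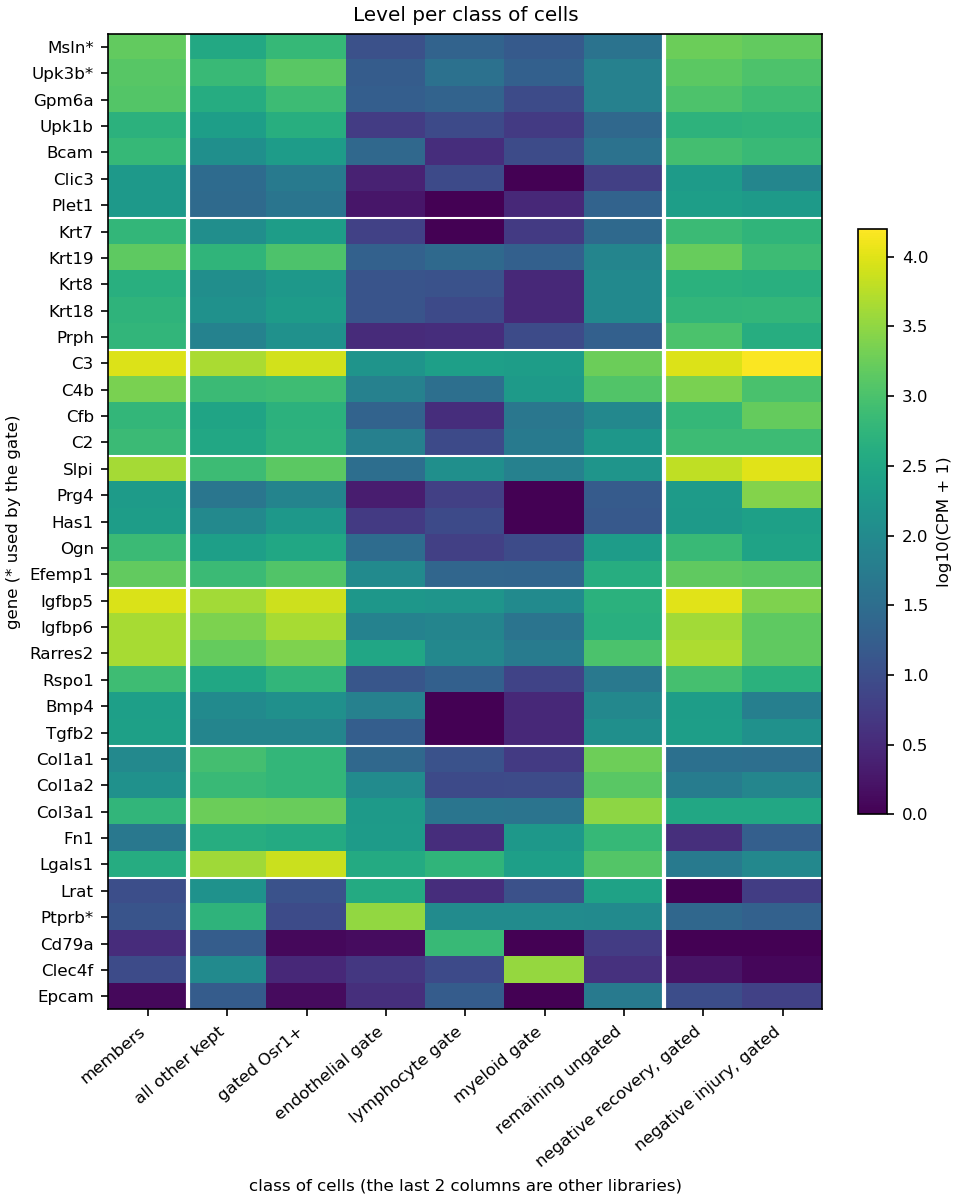
Colour gives the level of each gene as log10 of CPM plus 1 in members, in 6 other classes of the positive recovery library and in the gated cells with 0 Osr1 UMIs of both negative libraries. Members and the 2 negative libraries share the rows of surface, filament and complement genes, and the rows of matrix genes are brighter in gated Osr1-positive and remaining ungated cells.

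Surface genes of mesothelium were higher for the most part. Leaving out gate genes, 8 of 13 tested were at least 2-fold higher in members, 3 were lower, and the list median was 1.15. Ezr, the linker of microvilli to actin, was at 1574 CPM in members and 506 CPM in the other kept cells (1.62), and the P-cadherin gene Cdh3 at 112 CPM against 34.7 CPM (1.45). Cldn15, a tight junction claudin, was at 561 CPM against 229 CPM (1.26), and Muc16, the membrane mucin also known as CA125, at 273 CPM against 117 CPM (1.15). The lower genes were Podxl (-2.37), Cdh2 (-2.17) and Cldn10, at 41.2 CPM against 98.3 CPM (-1.08), which was 1.49 higher on the log2 scale when ungated cells alone were the other group. E-cadherin, Cdh1, was at 0.890 CPM in members.

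Among filament genes, 5 of 8 were higher and 2 lower (median 1.59). Krt18 was at 529 CPM in members against 131 CPM in the others (1.94), its partner Krt8 at 451 CPM against 117 CPM (1.86), and the stratified keratin Krt14 at 88.8 CPM against 12.7 CPM (2.12). Vimentin, Vim, was also abundant at 3284 CPM against 1868 CPM (0.81). The muscle filament Des was lower, at 8.59 CPM against 127 CPM (-2.89), as was Nes.

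The transcription factor list, Osr1 left out, had 1 of 20 higher and 7 lower, with a median of -0.63. Bnc1, basonuclin 1, was the higher one, at 204 CPM (197 to 212) in members against 74.5 CPM (70.5 to 78.7) in the others (1.34). Wt1, a factor of serosal mesothelium, was close in both, at 332 CPM against 306 CPM (0.11), and so were Gata6 (0.35) and Klf4 (0.37). Factors of stellate cells and other mesenchyme were low: Tcf21 was at 8.84 CPM against 169 CPM (-3.25), Lhx2 at 3.56 CPM against 63.6 CPM (-2.44) and Zeb2 at 17.1 CPM against 342 CPM (-3.70). All these ratios are against a mixture that includes the gated Osr1-positive cells. With ungated cells alone as the other group, 5 of the 20 factors were higher in members and 9 lower (median -0.96).

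Complement genes differed in both directions, and genes of the glycocalyx and lubricant list, not all of them lubricants, were more often higher than lower. Of the complement list 5 of 14 were at least 2-fold higher and 4 lower (median 0.40). C3, the central component, was at 9395 CPM (9347 to 9443) in members against 4637 CPM (4605 to 4669) in the others (1.02), and C4b at 2226 CPM against 742 CPM (1.57). C2 (1.15) and Cfb (1.07) were also higher, and C3 lay just past 2-fold. The C1q chains, made by macrophages, were at 4.71 to 5.85 CPM in members. Of 9 glycocalyx and lubricant genes 5 were higher and 2 lower (median 1.12). Besides Slpi these were Prg4, the joint lubricant lubricin, at 199 CPM against 43.5 CPM (1.96), the small proteoglycan Ogn at 739.6 CPM against 229.7 CPM (1.64), the hyaluronan synthase Has1 at 220.4 CPM against 93.7 CPM (1.15) and Efemp1 (1.12). The summed level of the glycocalyx and lubricant list was 16234 CPM in members, against 14864 CPM in all other kept cells and 19627 CPM in the remaining ungated cells.

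Both lists of matrix genes held more lower than higher genes. Of 16 fibrillar and interstitial matrix genes 0 were at least 2-fold higher in members and 9 lower (median -1.16), with Col1a1 at 92.5 CPM against 869.5 CPM (-3.10), Fn1 at 47.0 CPM against 411 CPM (-2.89) and Col1a2 at 134 CPM (128 to 140) against 709.8 CPM (697 to 723) (-2.32). Of 17 basement membrane genes 2 were higher and 8 lower (median -0.79). The higher ones were Lama5, a laminin chain of epithelial membranes, at 93.7 CPM against 20.7 CPM (1.75) and the collagen chain Col4a4 at 131 CPM against 34.8 CPM (1.65). Decorin, Dcn, remained abundant at 8283 CPM against 11119 CPM (-0.42).

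Signalling genes were mixed. Of the TGF-beta and BMP list 4 of 21 were higher and 5 lower, with a median of -0.07 that changes sign under TMM and DESeq2 scaling. The ligands Tgfb2, at 247 CPM in members against 79.9 CPM in the others (1.51), and Bmp4, at 238 CPM against 99.9 CPM (1.17), were higher, with the BMP target Id1 at 1012 CPM against 296 CPM (1.74) and the activin antagonist Fst (1.36). Bmp2 was at 8.52 CPM against 291 CPM (-4.02). Rspo1, a secreted amplifier of Wnt signals, was at 799 CPM (785 to 813) against 311 CPM (303 to 319) (1.33), and the hedgehog target Gli1 at 23.3 CPM against 3.96 CPM (1.25), in a list with 2 of 15 higher and 5 lower (median 0.22). The axon guidance ligand Sema3c was at 568 CPM against 131 CPM (2.03).

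Among receptors 2 of 22 were higher, the hepatocyte growth factor receptor Met (1.48) and the surface ligand Cd200 (1.21), and 7 lower (median -0.31), including Pdgfrb at 9.09 CPM against 145 CPM (-3.02). Of the insulin-like growth factor genes 1 of 8 was higher, Igfbp5, and 4 lower (median -0.88), among them Igfbp4, at 445 CPM against 1313.5 CPM (-1.54). Of 11 retinoid genes 1 was higher, Rarres2, which encodes the chemoattractant chemerin, at 4389 CPM against 1591 CPM (1.46), and 5 were lower (median -0.77).

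Chemokine genes were low, with 0 of 15 at least 2-fold higher and 11 lower (median -1.56). Cxcl12 was at 53.0 CPM in members against 927 CPM in the others (-3.90) and Ccl2 at 19.4 CPM against 170.3 CPM (-2.62). Of 7 acute-phase genes 0 were higher and 3 lower (median -0.89), of 13 interferon genes 1 was higher, Gbp2 at 969 CPM against 303 CPM (1.64), and 2 were lower (median -0.50), and of 11 antigen presentation genes 0 were higher and 2 lower (median -0.34). Of 13 genes of water and ion transport 4 were higher and 2 lower (median 0.71): the metal transporter Slc39a8 at 817 CPM against 171 CPM (2.19), the lactate transporter Slc16a1 (1.84), the ezrin-binding Slc9a3r1 (1.32) and the carbonic anhydrase Car3 (1.29). The Car3 ratio rested on the 46 cells of sub-cluster 6, described further on: without them members were at 70.3 CPM, against 73.2 CPM in the other kept cells (-0.05). Of the coagulation list 1 of 10 was higher, tissue factor F3, at 116 CPM against 38.9 CPM (1.37), and 4 lower (median -0.36). The other lists held 0 higher genes: 3 of 9 contractile genes were lower (median -0.74), 5 of 14 lipid genes (-0.42), 3 of 7 proliferation genes (-0.61) and 0 of 16 immediate-early and stress genes (-0.23, which becomes 0.16 with ungated cells as the other group). Of 20 further genes 6 were higher and 5 lower (0.41), with Chst4 (2.14), Sulf1 (1.63) and Pdpn (1.14) among the higher ones.

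Markers of endothelial, myeloid, lymphocyte, stellate and smooth muscle cells were low in members. The 12 sinusoidal endothelial markers summed to 236 CPM in members and 18586 CPM in the endothelial gate, the 12 Kupffer and myeloid markers to 61.8 CPM against 32595 CPM in the myeloid gate, and the 12 lymphocyte markers to 22.4 CPM against 6772 CPM in the lymphocyte gate. These gates were themselves set on marker genes of the same cell types, so the high sums in them are description only. The 12 stellate markers summed to 927 CPM in members against 5974.5 CPM in the remaining ungated cells, and Cygb alone gave 452 CPM of the sum in members. Kdr gave 173 CPM of the sinusoidal sum. Against all other kept cells 0 of these 4 lists' genes were at least 2-fold higher. They were lower for 12 of 12, 11 of 11, 5 of 9 and 10 of 12 tested genes, in the order of the sums above, and 3 of the 12 sinusoidal genes belonged to the gate. Of the smooth muscle markers 3 of 5 were lower and 0 higher (median -1.01), and of the vascular endothelial markers 4 of 5 were lower and 0 higher (-2.96).

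Markers of bile duct cells need the duct-only genes, since ducts and mesothelium share keratins. Cldn7 and Pkhd1 were at 0 CPM in members, Epcam at 0.254 CPM and Spp1 at 3.18 CPM, while the 4 higher genes of the 10 tested were Krt7, Krt19, Tspan8 and Bicc1, and 5 were lower. Portal fibroblast markers had 1 of 12 higher, Gas6 (1.06, and 0.99 without sub-cluster 6), and 5 lower, with a median of -0.56 that becomes 0.35 with ungated cells as the other group. Hepatocyte markers had 1 of 9 higher and 2 lower, with a median of -0.13 that becomes 0.89 with the mean of per-cell fractions. The higher one, the urinary protein gene Mup20, at 48.4 CPM against 15.4 CPM (1.20), was at 18389.7 CPM in 18 members (sub-cluster 4, described further on) and the ratio was -0.70 without the sub-clusters 1, 4 and 5. Bile duct markers summed to 3008 CPM in members against 1552 CPM in all other kept cells. The sums were 3113 against 2902 CPM for portal fibroblast markers and 1096 against 1111 CPM for hepatocyte markers.

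**Figure D3:**
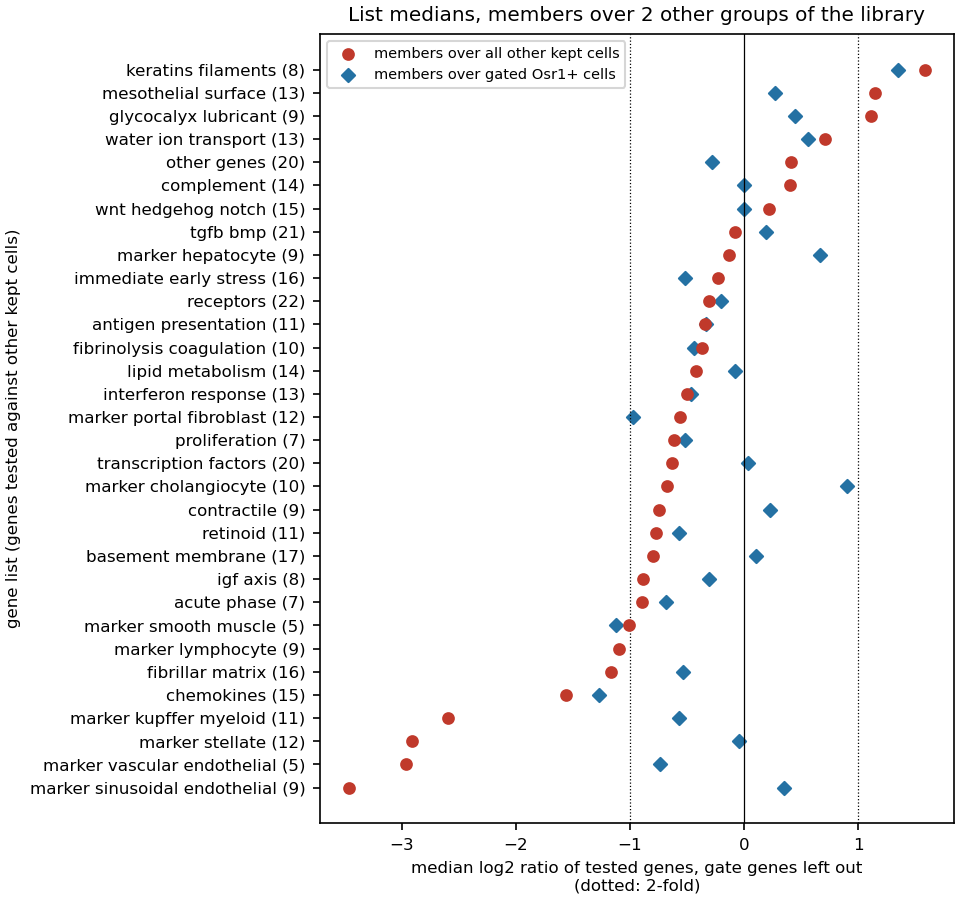
Points give the median log2 ratio over the tested genes of each list, gate genes and Osr1 left out, for members over all other kept cells (circles) and over gated Osr1-positive cells (diamonds). Brackets give the number of genes tested against all other kept cells, and the diamonds can rest on fewer genes. Keratins, surface and lubricant genes lie right of the 2-fold line against all other cells, and the marker lists of other cell types lie left of 0, the hepatocyte list nearest to it at -0.13. Against Osr1-positive cells the cholangiocyte (0.90, 5 genes), hepatocyte (0.66, 8 genes) and sinusoidal endothelial (0.35, 2 genes) lists lie right of 0.

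Members were next set against the 404 gated Osr1-positive cells of the same library, which pass the same gate. Of 8907 genes 133 (1.49%) were at least 2-fold higher in members and 233 (2.62%) lower, with a median log2 ratio of -0.01. Apart from Osr1, which the rule fixed, the lowest were Enpp2, the secreted lysophospholipase autotaxin, at 20.5 CPM in members against 538 CPM in Osr1-positive cells (-4.16), and Lgals1, the lectin galectin 1, at 398 CPM (388 to 408) against 7183 CPM (7126 to 7239) (-4.14). Fgf1 (-3.93), Fndc1 (-3.89), the microfibril protein Mfap5 (-3.54), Ly6a (-3.27), Gng13 (-3.15), the LIM protein Csrp2 (-3.12) and the water channel Aqp5 (-3.07) followed.

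The highest ratios were those of Prph, at 584 CPM in members against 131 CPM in Osr1-positive cells (2.08), Plet1 (1.87), Myl7 (1.85) and Bst1 (1.85). The water channel Aqp1 was at 1327 CPM (1309 to 1345) against 406 CPM (393 to 420) (1.68), so the 2 aquaporins lay on opposite sides. Keratins were higher for 4 of 7 genes (median 1.35) and lower for 1. The ratio was 0.41 for Krt19, 0.65 for Gpm6a and -0.49 for Wt1, all within 2-fold. Chemokines were lower for 8 of 14 (median -1.27), and fibrillar matrix for 4 of 14 (median -0.53), with Col1a1 at 92.5 CPM against 611 CPM. C4b was the 1 complement gene of 13 past 2-fold, at 2226 CPM in members against 782 CPM. Immediate-early and stress genes had a median of -0.51, with Ier2 and Dusp1 lower of 16.

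Gated cells with 0 Osr1 UMIs in the negative recovery library, 82 cells with 1499944 UMIs, were close to members. Of 8803 genes 36 (0.409%) were at least 2-fold higher in members and 9 (0.102%) lower. The surface list had 0 of 15 past 2-fold (median -0.05) and the keratins 0 of 6 (-0.11). Krt7 was at 606 CPM in members against 729 CPM (687 to 774) in the negative cells (-0.26), Igfbp5 at 9150.1 against 10318 CPM (-0.17) and C3 at 9395 against 9565 CPM (-0.03).

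Among the 36 higher genes were Lgals1, at 398 CPM in members against 53.3 CPM (42.3 to 66.4) (2.69), Fn1 at 47.0 against 2.67 CPM (2.17), Saa3 at 142 against 24.0 CPM (2.16) and Car3 at 194 against 74.7 CPM (1.27). Cxcl12 was at 53.0 CPM against 0 counts. Many of these genes rest on small sub-clusters. With sub-clusters 1, 4, 5 and 7 left out, a choice made after seeing the data, 787 members remained and 11 of the 36 genes were still past 2-fold, among them Lgals1, Fn1, Saa3 and Cxcl12. Lgals1 was then at 135 CPM and Fn1 at 21.1 CPM in members. Car3 rested on sub-cluster 6, outside which members were at 70.3 CPM, against 74.7 CPM in the negative cells (-0.08). With sub-cluster 6 left out as well, 741 members remained and 9 of the 36 genes were past 2-fold. All 9 lower genes remained under both choices. They included the duct genes Spp1, at 3.18 CPM against 154 CPM (-3.64), and Tm4sf4, and Epcam was at 0.254 against 8.67 CPM. The sinusoidal marker sum was 236 CPM in members and 415 CPM in the negative cells, of which Kdr alone gave 173 and 290 CPM. The lymphocyte sum was 22.4 and 0 CPM. The part of RNA from other cells in the differences was not tested.

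Values of the 258 gated cells with 0 Osr1 UMIs at injury, from the negative fraction, differ in both stage and fraction and are given side by side. Slpi was at 4280.4 CPM in members and 10146 CPM at injury, Saa3 at 142 and 3992 CPM, Prg4 at 199 and 2673 CPM and the iron-binding Lcn2 at 25.5 and 754 CPM. Igfbp5 was at 9150.1 and 2488 CPM, and Msln at 1567 and 1532 CPM. Stage and fraction cannot be told apart here.

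The spread among members was measured in the 758 cells with at least 5000 UMIs, each thinned to 5000, which left out 227 shallower members. The excess squared CV is the variance over the squared mean minus what counting alone gives, so 0 means counting noise only. Of 1532 genes with a mean of at least 0.5 UMIs, 141 (9.2%) had an excess of 0.5 or more, and the median was 0.103. Genes typical of members lay on both sides of that limit. Serping1, the C1 inhibitor, had 0.0627, Gpm6a 0.136, Igfbp6 0.154 and C3 0.182, while Krt18 had 0.535, Clic3 0.680, Krt8 0.755, Prph 0.859, Plet1 0.939 and Myl7 1.25. Of the 8 genes of the surface list tested, gate genes left out, 0 reached 0.5, near the share of 9.2% over all genes. Plet1, also a surface protein, is not in that list. A thinned member held 5.91 ± 3.26 UMIs of Gpm6a (mean and SD over cells) and 47.7 ± 21.5 of C3. The excess was 0.372 for Krt19, 0.421 for Krt7 and 0.439 for Igfbp5. Msln and Upk3b, on which the gate selected, had 0.319 and 0.146.

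A few genes sat in few cells. Saa3, an acute-phase protein, had the largest excess, 36.7: it had a UMI in 18.7% of the thinned cells, and the top 5% of cells (38 cells) held 75.7% of its UMIs, with up to 88 in 1 cell. Lgals1 followed at 22.6, with 80.2% of its UMIs in the top 5% of cells and a median of 0. In Osr1-positive cells thinned alike Lgals1 had a mean of 39.1 UMIs and an excess of 0.618, against a mean of 2.15 in members. Car3 had an excess of 13.6, with 72.1% of UMIs in the top 5% of cells, and Csrp2 4.96. The cell cycle inhibitor Cdkn1a (3.94), the lubricant gene Prg4 (2.86) and the secreted protein gene Dmkn (2.62) came next among the leading genes, with the heat-shock genes Hspa1a and Hspa1b. Slpi, present in 88.5% of cells, still had 1.16, with a 10th percentile of 0 and a 90th of 48.6 UMIs.

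**Figure D4:**
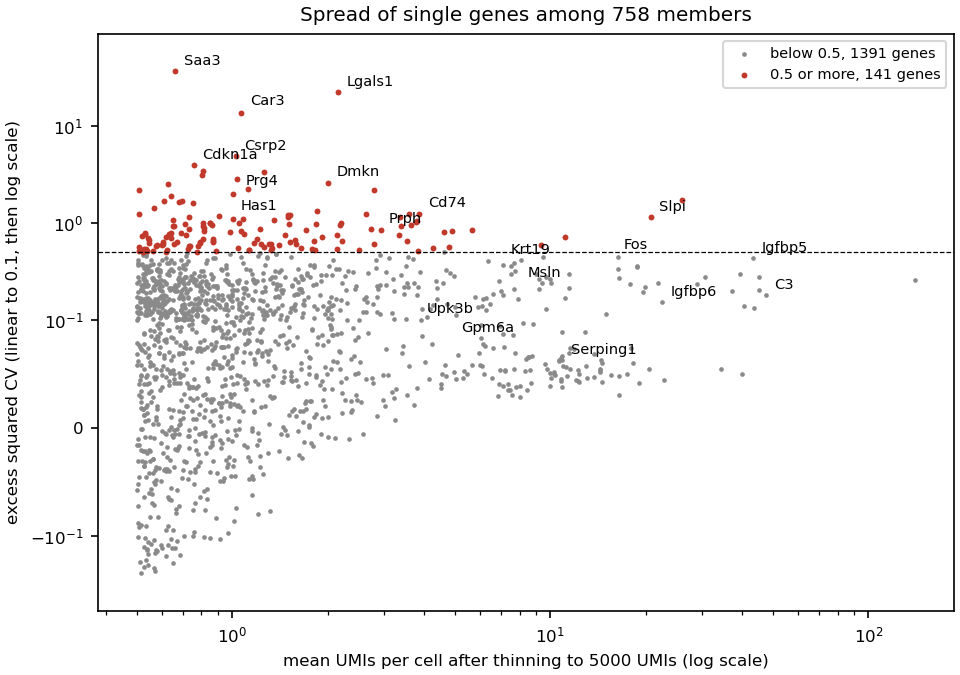
Each point is 1 of 1532 genes, with its mean UMIs per member after thinning to 5000 UMIs on the horizontal axis (log) and its excess squared CV on the vertical axis (linear to 0.1, then log). The 141 genes at 0.5 or more lie above the dashed line, led by Saa3, Lgals1 and Car3, with Prph and Slpi also above it, and Gpm6a, Krt19, Igfbp5 and C3 lie below it.

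By list, 10 of 15 immediate-early and stress genes, 5 of 9 antigen presentation genes, 3 of 7 glycocalyx and lubricant genes and 2 of 5 filament genes were over the limit of 0.5, and 0 of 9 complement genes. Of other lists, 3 of 6 fibrillar matrix genes, 4 of 10 TGF-beta and BMP genes and 2 of 2 lipid genes were also over it. Across the 758 thinned members, which share 1 library and 1 depth, 10585 gene pairs had a median Spearman rho of 0.00, and the strongest positive ties included the following pairs. Fos was tied to Fosb (0.63) and Jun (0.59), the class II chaperone Cd74 to H2-Eb1 (0.54), and the metallothioneins Mt1 and Mt2 to each other (0.51). Dmkn ran with Lgals3 (0.40) and against Apoe (-0.36) and Alcam (-0.35), and Lgals3 ran with Krt19 (0.39). Lgals3 and Alcam were named after their values were seen. These rho values are descriptions across cells of 1 library.

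Clustering of the members alone gave 8 sub-clusters, numbered 0 to 7. Their leading genes define them and are no test. The largest, sub-cluster 2 (396 cells, median 16553 UMIs), had 0 genes past 2-fold higher and led with Nr4a1 and Prph, at 760.1 CPM against 397 CPM in the other members (0.92). Sub-cluster 0 (127 cells, 24149 UMIs) was the most keratin-rich: Krt14 was at 232 CPM against 46.7 CPM in the other members (2.09), Dmkn at 1042 against 279 CPM (1.86), and Krt7 at 974 CPM against a level of 606 CPM over all members. Its further leading genes were Slurp1, Calcb and the cyclin Ccnd1. The border between sub-clusters 0 and 2 depended on the setting. At Leiden resolution 0.3 all cells of both fell in 1 cluster of 580 cells. At resolution 1 the best-matching cluster held 42 of 127 cells of sub-cluster 0 and 151 of 396 of sub-cluster 2. After called doublets were removed, it held 105 of 121 and 310 of 393 cells. Sub-cluster 3 (218 cells, 8244 UMIs) was low in immediate-early genes, with Fos at 863 CPM against 3403 CPM over all members and Atf3 at 119 against 779 CPM. It led with 2900060B14Rik, AY036118, the histone genes Hist4h4 and Hist1h4d and Gm42418, at 10306 against 3423 CPM in the other members (1.59), and its mitochondrial share was 6.89%, against 4.03% over all members. Reads of Gm42418 and AY036118 can come from ribosomal RNA genes that they overlap. The part of depth and RNA quality in this sub-cluster was not tested.

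Sub-cluster 6 (46 cells, 15332 UMIs, 0 called doublets) was a Car3-rich group. Car3 was at 2558 CPM against 70.3 CPM in the other members, with the growth factor Igf1 at 90.7 against 10.8 CPM (2.28), Fxyd1, a regulator of the sodium pump, at 359 against 69.9 CPM (2.21), Tagln (2.17) and Vwc2 (2.14). Some lubricant and defence genes were low there. Has1 was at 5.11 CPM against 220.4 CPM over all members, Prg4 at 17.9 against 199 CPM, Dmkn at 25.6 against 453 CPM and Cfb at 48.5 against 601 CPM. Ogn and C2 were not low there. Leaving this sub-cluster out moved Ogn of members from 739.6 to 721.8 CPM and C2 from 731.9 to 724.4 CPM. Gpm6a was at 1221 CPM against 1182 CPM over all members, and Wt1 at 459.9 against 332 CPM. Igfbp5 was at 2960.3 CPM, the lowest of the 8 sub-clusters, and Alcam, named after its values were seen, at 1658 CPM the highest. Cells of this group met again under other settings: 44 of 46 fell in 1 cluster at Leiden resolution 1 and 44 of 46 after called doublets were removed, and 35 of 46 at resolution 0.3.

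Sub-cluster 7 (25 cells, 13148 UMIs, 1 called doublet) carried the genes that set Osr1-positive cells apart, with 0 Osr1 UMIs by rule. Lgals1 was at 11129.5 CPM against 163 CPM in the other members (6.01), beside Enpp2 at 763 against 4.29 CPM (5.76), Fndc1 (5.13), Ly6a (5.07) and Gng13 (4.60). All 5 are among the 10 genes lowest in members against Osr1-positive cells. Fn1 was at 867 CPM against 47.0 CPM over all members, Saa3 at 1701 against 142 CPM and Csrp2 at 2511 against 195 CPM. Slpi was at 104 CPM, Aqp1 at 29.7 CPM, Prph at 11.9 CPM and Myl7 at 5.94 CPM, each the lowest of the 8. Wt1 was at 543 CPM, the highest of the 8, and Gpm6a at 528 CPM against 1182 CPM over all members. All 25 cells fell together at both other resolutions.

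The other 3 sub-clusters led with genes known from other cell types, and sub-clusters 4 and 5 were shallow. The part of RNA from other cells in them was not tested. Sub-cluster 1 (16 cells, 29829 UMIs) led with Cxcl12, Reln, Rgs5, Tgfbi and Plvap. Of its cells 14 were called doublets, and its stellate marker sum was 4192 CPM, against 543 to 1182 CPM in the other 7. Sub-cluster 4 (18 cells, 1820 UMIs) led with Mup20, Alb, Mup3, Ttr and Apoa2, had a hepatocyte marker sum of 66080 CPM against 806 to 1989 CPM elsewhere, and a mitochondrial share of 1.17%. Sub-cluster 5 (139 cells, 1631 UMIs) led with Apoc1, Lum, Apoa2, Mup3 and Pdgfrb, with Malat1, a nuclear RNA, at 4379 CPM against 26224 CPM over all members and a mitochondrial share of 1.33%. Of genes outside the gate, C3 was at 12099 CPM in it, Slpi at 7592 CPM and Gpm6a at 905 CPM. Without sub-clusters 1, 4 and 5, a choice made after seeing the data, 812 members remained.

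**Figure D5:**
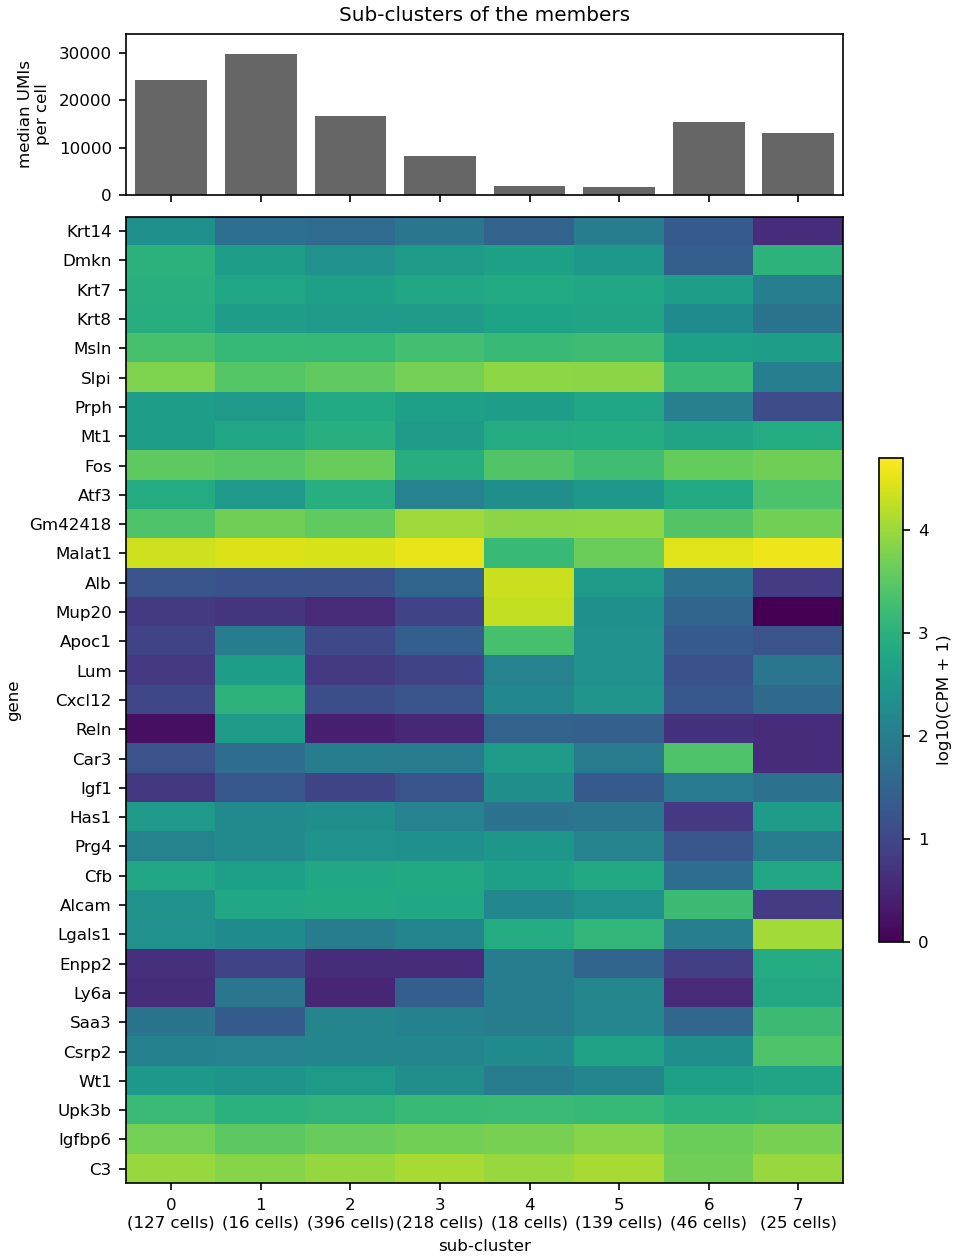
The upper panel gives the median UMIs per cell of the 8 sub-clusters of members and the lower panel the level of 33 genes as log10 of CPM plus 1, with cell numbers under each column. Car3 is brightest in sub-cluster 6, Lgals1 and Enpp2 in sub-cluster 7, hepatocyte genes in sub-cluster 4, and Igfbp6 and C3 are bright in all 8.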

How the data were processed

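Cells were prepared with a 10x Genomics single cell 3' protocol, per the labels' protocols. The authors deposited counts, whole numbers of UMIs per gene and barcode, and the submitters' processing notes name mm10, GRCh38, fastp and featureCounts 1.6.2. How the authors called cells is not stated in the sources used here. Of 31053 features 31011 were in GENCODE release M21 (mm10). Barcodes numbered 2606 (33442403 UMIs) in positive recovery, 3108 (27816768 UMIs) in negative recovery and 6160 (49993127 UMIs) in negative injury.

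Members, gene lists and comparisons were chosen with earlier results of these data known. The 32 lists held 439 symbols, 438 of them among the features. Counts were summed per class and divided by the total, then multiplied by 1000000 (CPM). Log2 ratios had 10 CPM added. Genes at 10 CPM or more in either group were compared and called past 2-fold. Lymphocyte cells had at least 10 UMIs per 10000 of Cd79a, Cd79b, Ms4a1, Cd3d, Cd3e, Cd3g, Nkg7 and Trbc2 together. Myeloid cells had at least 20 UMIs per 10000 of Lyz2, C1qa, C1qb, C1qc, Csf1r and Clec4f together. Doublets were scored, not removed. Sub-clusters used 2000 variable genes, 20 components, 15 neighbours and Leiden resolution 0.5 (scanpy 1.11.5, igraph 0.11.9, seed 7). Scaling alternatives came from edgeR 4.0.16 and DESeq2 1.42.0, and the steps were checked on simulated counts. Genes named are those of the lists, the 10 highest and 10 lowest ratios of each comparison, the 10 highest levels, the 10 largest excess squared CVs and 5 leading genes per sub-cluster. Levels of overlapping genes and near-identical copies are uncertain.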

Additional observations from a re-analysis of the deposited data

How the results depend on the processing

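Against all other kept cells, genes at least 2-fold higher numbered 270, and 423 with 1 CPM added, 108 with 50 CPM added and 628 with ungated cells as the other group. Lower genes numbered 851, and 257 with 50 CPM added and 1388 with ungated cells. Against Osr1-positive cells the total was 366, and 688 and 117 with 1 and 50 CPM added and 613 against cells with at least 3 Osr1 UMIs. Against negative recovery it was 45, and 117 and 4 with 1 and 50 CPM added, 113 with the mean of per-cell fractions, 29 without sub-clusters 1, 4 and 5, 23 without 1, 4, 5 and 7 and 22 without 1, 4, 5, 6 and 7. Over-dispersed genes numbered 141, and 89 at 3000 UMIs, 442 with a minimum mean of 0.2 and 44 with a limit of 1. Leiden resolution 1 gave 13 sub-clusters in place of 8. Of 5512 ratios of 424 named genes under 13 alternatives, 8 changed sign: Mup20 became -0.14 at 3000 UMIs or more and -0.70 without sub-clusters 1, 4 and 5, and with ungated cells as the other group Aqp5 became 0.54, Cldn10 1.49, Clec3b 0.10, Csrp2 0.0847, Gng13 0.96 and Lgals7 1.83. The cause was not tested. Depth limits the call of 0 Osr1 UMIs: thinned to 1000 UMIs, 1286 of 1389 gated cells would be members. No paired analysis was possible because each group has 1 library and the labels carry no replicate numbers.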

Other observations

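Several genes of members fall outside the lists of liver mesothelium described above. The interleukin 18 receptor chain Il18r1 was at 319 CPM (310 to 328) in members and 54.6 CPM (51.2 to 58.2) in all other kept cells, and at 419 CPM in negative recovery and 283 CPM in negative injury gated cells. Atp6v0a4, a proton pump subunit best known from the kidney, was at 150.2 CPM in members, 36.6 CPM in gated Osr1-positive cells and 6.59 CPM in the remaining ungated cells. Kdr, a receptor for vascular endothelial growth factor, was at 173 CPM in members and 82.0 CPM in gated Osr1-positive cells, while the endothelial gene Cdh5 was at 2.93 and 1.38 CPM.

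The 13 proliferation genes summed to 176 CPM in members and 255 CPM in gated Osr1-positive cells, and of 8 tested 0 were at least 2-fold higher and 3 lower (median -0.52). Mki67 was at 0.191 CPM and Top2a at 0.254 CPM in members, against 16.2 and 17.0 CPM in Osr1-positive cells, while Pcna was at 41.1 and 48.6 CPM. Class II genes were present in members without other leukocyte genes at like levels: Cd74 was at 747 CPM and H2-Eb1 at 111 CPM, while Ptprc was at 2.61 CPM. In negative injury gated cells H2-Eb1 was at 1.98 CPM, beside Cd74 at 884 CPM and H2-Ab1 at 150 CPM, and in members H2-Ab1 was at 127 CPM.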
